A study of Homo sapiens with 12 samples.

Results

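The effect of AICAR on transcript levels was examined in HepG2 cells carrying a control hairpin, by subtracting the arrays of DMSO-treated cells from those of AICAR-treated cells gene by gene. HepG2 is an established human hepatoma line, and sh-con denotes a small-hairpin RNA against no relevant target, which both groups carried. Members were chosen from the array titles as the 2 sh-con DMSO and the 2 sh-con AICAR arrays, 4 of the 12 arrays of the series. Genes were all those measured by a probe set with 1 gene symbol, and 13813 of 18417 passed a filter on dim genes and were tested. The other 8 arrays held sh-con cells with Nutlin, and cells with a hairpin against p53 (sh-p53) given DMSO, Nutlin or AICAR. Cells were plated as biological duplicates, 700000 to a well, and were exposed for 24 h to 0.5 mM AICAR, 10 uM Nutlin or DMSO as the control. The labels do not say whether a hairpin line was 1 clone or a pool, and they give no later or earlier time. The transcript aimed at by the p53 hairpin was not analysed here. The design text calls both compounds stimulators of p53, and the comparison asks which genes AICAR moved where the p53 gene had not been targeted.

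AICAR is a nucleoside that cells take up and phosphorylate to ZMP, an analogue of AMP and an intermediate of purine synthesis. ZMP switches on AMPK, the kinase by which cells sense a shortage of energy and which in liver turns down the synthesis of lipid, glucose and protein. p53 is a transcription factor that raises genes of cell cycle arrest, repair and apoptosis under stress, and Nutlin releases it from MDM2, the ligase that has it degraded. All levels below are log2 RMA values, so a difference of 1 is a change of 2-fold, and levels of different genes are not set against each other.

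The cells kept the markers of hepatoma cells. Of 9 such markers with values, all lay at or above the 98th percentile of all genes, and 8 of them did not pass the test; the exception was TTR, a thyroxine carrier, with a difference of 0.38 that lost its call when any 1 of the 4 arrays was left out. Albumin (ALB) read 12.96 and 12.83 with DMSO and 13.01 and 12.96 with AICAR. Markers of other cell types ranged from dim to bright. All 7 of endothelium lay at or below the 24th percentile. Among dim ones were PTPRC of leukocytes between 3.20 and 3.36, DCN and LUM of fibroblasts between 2.81 and 3.19, and PECAM1 of endothelium between 4.22 and 4.42. Others were brighter, with COL1A1 of fibroblasts at the 53rd percentile, TYROBP and CD68 of leukocytes at the 65th and 82nd, and KRT19, SPP1 and EPCAM of bile duct and progenitor cells at the 96th to 98th. Of 19 markers of endothelium, fibroblasts and leukocytes, only LYVE1, COL1A1, COL1A2, COL3A1, PDGFRB, CD68, CD14 and TYROBP were bright enough to be tested. Of these, 2 were called, the leukocyte genes CD68 (8.38 in both DMSO arrays, 8.97 in both AICAR arrays) and CD14 (5.07 and 5.29, then 6.05 and 6.17). Over all tested genes 14.6% were called higher and 23.2% lower. Of 7 markers of bile duct and progenitor cells CFTR was too dim to be tested. EPCAM rose by 0.53, not called with arrays centred or without the second DMSO array, and PROM1 fell by 1.65. The part of such cells in the results was not tested. The 2 DMSO arrays correlated across genes at r = 0.996 and the 2 AICAR arrays at 0.99, with SDs of the difference of 0.188 and 0.29. With 2 arrays a group, their number limits the precision, and p-values measure the spread between these arrays.

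AICAR changed more genes downwards than upwards. Called genes, with a Benjamini-Hochberg adjusted p under 0.05 in limma, numbered 2023 that rose and 3198 that fell, 14.6% and 23.2% of those tested. A further 8592 genes (62.2%) were not called. Among the called genes, 337 rose and 802 fell by 2-fold or more, 40 rose and 63 fell by 4-fold or more, and 11 rose and 4 fell by 8-fold or more. The median over all tested genes was 0.04. The AICAR arrays had the higher median over all probe sets, 5.76 and 5.84 against 5.64 and 5.68 with DMSO. Centring the arrays on that median lowered every difference by 0.14 and gave 1103 risen and 3920 fallen genes, so that 22% of calls were higher in place of 38.7%. Without the first DMSO array the counts were 1164 and 2009.

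The genes that rose most covered several systems. MUC13, a membrane mucin of epithelia, read 3.81 and 4.27 in the DMSO arrays and 8.79 and 8.46 in the AICAR arrays. Its change was 4.59 ± 0.17 (SE, n = 2 against 2; adjusted p = 1.39e-11), the highest of all, and its size is uncertain because the DMSO level lay below the filter level of 4.58. CABYR, a calcium-binding protein described in sperm, read 4.32 and 4.46 with DMSO and 8.38 and 8.53 with AICAR, a change of 4.07 ± 0.14 (adjusted p = 5.8e-12), also from below the filter level. ARRDC4, an arrestin-like adaptor that sorts glucose transporters, read 5.88 and 5.91, then 9.95 and 9.69. HBEGF, which activates the EGF receptor, read 5.77 and 5.70, then 9.41 and 9.30. In each of these genes both AICAR arrays lay far above both DMSO arrays, which the choice of genes largely fixed. Groups lay apart in 9650 of 13813 tested genes, in 2020 of the 2023 that rose and in all 3198 that fell. The same remark on called genes below therefore adds little to the call. The fold changes were 15.2 for ARRDC4 and 12.3 for HBEGF. Of the 25 highest changes, from 2.23 to 4.59, 6 started below the filter level. Others among the 25 were the fatty acid hydroxylase CYP4F2 (2.89, with near-identical relatives), the ceramidase ACER2 (2.82), the receptor HCAR3 (2.51), PPP1R3C (2.44), which brings a phosphatase to glycogen, and TUFT1 (2.30).

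**Figure D1:**
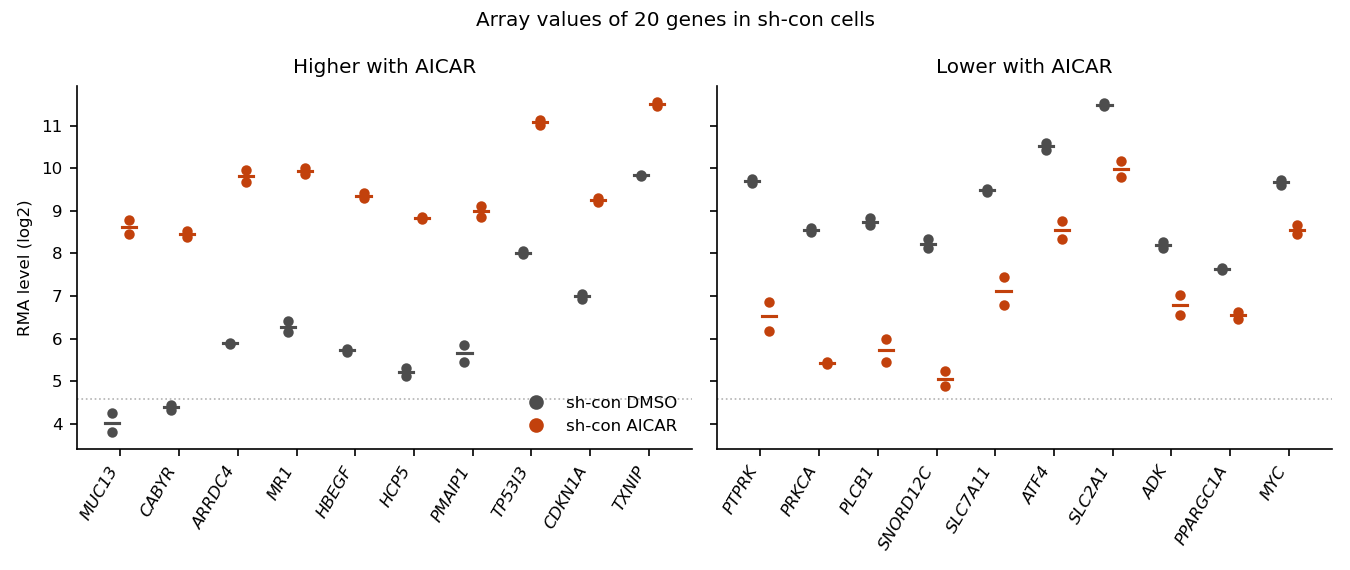
Log2 RMA level of 20 genes in each sh-con array (points) with the group mean (bars), DMSO in grey and AICAR in orange; the dotted line is the filter level of 4.58. Both arrays of one treatment lie beyond both of the other in each gene, which the choice of genes largely fixed and which held for 9650 of 13813 tested genes; MUC13 is furthest apart at 4.59, with CABYR at 4.07.

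Many p53 target genes rose, to a differing degree in 4 lists. Of 22 tested targets that act in arrest and feedback, 14 rose and 2 fell, with a median change of 0.84. Of 19 apoptosis targets, 12 rose and 0 fell, with a median of 1.02. In the other lists 5 of 10 targets of DNA repair rose and 2 fell (median 0.36), and 8 of 17 targets of metabolism and redox rose and 2 fell (median 0.24). These lists were chosen with results of these data known, so their counts are descriptions. CDKN1A, the inhibitor of cyclin-dependent kinases that carries out the p53 arrest, read 7.06 and 6.93 with DMSO and 9.31 and 9.21 with AICAR. Its 2 AICAR arrays lay 4.81-fold above DMSO on average (2.27 ± 0.13, adjusted p = 2.25e-09). MDM2, the p53 ligase and itself a target, read 10.63 and 10.47, then 11.24 and 11.25, a change of 0.69 ± 0.14 (adjusted p = 0.000603). TP53I3, a quinone oxidoreductase, read 7.98 and 8.05, then 11.13 and 11.02. PMAIP1, the BH3-only protein NOXA, read 5.45 and 5.86, then 9.12 and 8.85. In each gene both AICAR values lay above both DMSO values. The stress protein TP53INP1 (2.88), the polo-like kinases PLK2 (2.72) and PLK3 (2.33), the repressor E2F7 (1.96), the death receptor FAS (1.88) and the phosphatase PPM1D (1.76) also rose. The BH3-only gene BCL2L11, which is not a defining p53 target, rose by 2.04. Among inhibitors of mTORC1, SESN2 rose by 1.89 and SESN1 by 1.47, whereas SESN3 (0.03) and DDIT4 (-0.01) were not called.

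AICAR's carriers were not called, while the kinase that activates it fell. None of the 4 tested nucleoside transporters was called: SLC29A1, the main equilibrative carrier, read 8.75 and 8.60 with DMSO and 8.49 and 8.56 with AICAR. The differences were 0.00 for SLC29A2, -0.17 for SLC29A3 and -0.03 for SLC29A4, and SLC28A1, SLC28A2 and SLC28A3 were too dim to be tested. ADK, the adenosine kinase that makes ZMP from AICAR, read 8.27 and 8.13, then 7.03 and 6.55, and fell 2.66-fold (-1.41 ± 0.19, adjusted p = 1.47e-05). Of 6 tested AMPK subunits 1 rose and 1 fell. The catalytic subunit PRKAA2 read 8.56 and 8.40, then 7.84 and 7.69 (-0.71), and the scaffold PRKAB1 read 8.29 and 8.33, then 8.92 and 8.81 (0.56). The catalytic PRKAA1 (-0.40), PRKAB2 (-0.21), PRKAG1 (-0.07) and PRKAG3 (0.25) were not called, and PRKAG2 was too dim. Of 28 genes for AMPK substrates and effectors, 2 rose and 12 fell, with a median of -0.18, and 6 fell without the first DMSO array. RPTOR, the mTORC1 subunit that AMPK phosphorylates, fell by 1.92, and TBC1D4, which holds back glucose transporters, fell by 1.69. PPARGC1A, a coactivator of gluconeogenesis and mitochondrial genes, read 7.67 and 7.62, then 6.63 and 6.46, and fell by 1.10. The loci of ADK, RPTOR and PPARGC1A span 558, 422 and 681 kb. Of all tested loci over 200 kb, 63.8% fell, and 34.8% fell by 2-fold or more. Whether these 3 falls go with the pathway or with locus length was not tested.

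Genes of glucose sensing moved in opposed directions. TXNIP and ARRDC4 are targets of MondoA and ChREBP, factors that bind paired E-boxes when sugar phosphates build up. Their promoters are shown because they rose while most other genes of the list did not. Each stretch is the 250 bases before the most upstream start in RefSeq on GRCh38.p14, 5′ to 3′ along the gene. TXNIP lies on the minus strand at chr1:145996580-145996829, with a paired E-box (CACG, then 5 to 9 bases, then CGTG or CACG) in capitals from 88 bases before the start. ARRDC4 lies on the plus strand at chr15:97960453-97960702, with an E-box (CACGTG) 210 bases and an AP-1 site (TGAGTCA on the other strand) 119 bases before the start in capitals.
TXNIP: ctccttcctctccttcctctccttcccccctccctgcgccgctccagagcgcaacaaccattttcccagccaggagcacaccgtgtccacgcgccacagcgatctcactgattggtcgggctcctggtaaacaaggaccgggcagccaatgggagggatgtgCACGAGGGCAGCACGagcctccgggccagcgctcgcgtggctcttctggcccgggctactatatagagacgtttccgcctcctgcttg
ARRDC4: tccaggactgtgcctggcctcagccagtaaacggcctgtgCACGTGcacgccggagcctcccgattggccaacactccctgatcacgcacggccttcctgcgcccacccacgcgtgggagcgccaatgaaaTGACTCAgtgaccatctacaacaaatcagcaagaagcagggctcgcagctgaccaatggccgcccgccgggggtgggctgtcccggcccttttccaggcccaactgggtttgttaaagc
These letters are common: the E-box stood in 8.77% and the paired form in 5.24% of the 10836 tested genes with such a promoter, and in 7.49% and 4.12% of the genes that rose 2-fold or more. TXNIP read 9.84 and 9.83 with DMSO and 11.54 and 11.46 with AICAR, a rise of 1.67 ± 0.16 (adjusted p = 4.28e-07). Both AICAR values lay above both DMSO values, as they did for ARRDC4 (3.92 ± 0.19). KLF10, a repressor also driven by ChREBP, rose by 1.26. The factors themselves, MLXIP (MondoA, -0.54) and MLXIPL (ChREBP, -0.53), both fell, calls that were lost without the first DMSO or the second AICAR array. The glucose transporter SLC2A1 read 11.52 and 11.46, then 10.17 and 9.79, and fell 2.86-fold. The transporters SLC2A2 and SLC2A3 fell by 1.5 and 1.35, and hexokinase HK2 fell by 1.02. In all, 4 of the list's 15 tested genes rose and 7 fell. Of 20 glycolysis genes 1 rose (5%) and 3 fell (15%), both below the 14.6% and 23.2% over all genes. G6PC1, which releases free glucose in liver, rose by 1.70, and PCK1, which starts gluconeogenesis, was not called (0.42).

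Immediate early genes were mostly raised. Of 29 tested immediate early transcription factors, 17 rose (58.6%) and 4 fell (13.8%), with a median of 0.47. The shares over all genes, to be set beside each count of this paragraph, were 14.6% and 23.2%. FOS, a subunit of AP-1, read 6.32 and 6.08 with DMSO and 8.16 and 7.83 with AICAR, a 3.48-fold difference with no overlap (1.80 ± 0.16, adjusted p = 1.5e-07). JUNB (1.52), ATF3 (1.47), CSRNP1 (1.28), EGR1 (0.70) and JUN (0.62) also rose, JUN not without the second DMSO or the first AICAR array. MYC read 9.61 and 9.72, then 8.66 and 8.46, and fell by 1.11, and ID1 fell by 1.77. The phosphatases DUSP10 (2.12) and DUSP1 (1.59), which switch off MAP kinases, were among 8 of 19 ERK feedback genes that rose, while 7 fell, 4 without the first DMSO array. The count of rises depended on the arrays: it was 3 without the first DMSO or the second AICAR array, 5 without the second DMSO array and 4 with arrays centred on the median. HBEGF was the only 1 of 4 tested EGF family ligands to be called. TGFA (-0.10) and EREG (0.20) were not. In the receptor family and its sheddases 0 of 15 rose and 9 fell (60%). ERBB3 read 9.16 and 9.12, then 7.69 and 7.31, and fell by 1.64, and ERBB2 and EGFR fell by 0.96 and 0.71.

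Of 12 motifs searched, the CCAAT box and the cAMP response element differed most in share between risen genes and all genes on the higher side. The CCAAT box was found, on either strand, in 50.2% of 267 promoters of genes that rose 2-fold or more, in 31.6% of 626 that fell as much, and in 34.4% of all 10836. The cAMP response element TGACGTCA was found in 5.99%, 2.08% and 2.72%. The ETS site CCGGAAG went the other way, at 8.99% and 9.27% against 14.7% of all. Smaller differences were seen for an E2F site (GGCGGGAA, 6.37% of risen against 4.46% of all), the amino acid response element TGATGNAA (2.25% against 1.47%) and AP-1 (3.0% against 2.67%). These shares are descriptions, no test was made, and a match is not a bound site. MUC13, DUSP1 and PPM1D are shown as genes that rose and carry TGACGTCA (capitals); in MUC13 an AP-1 site 178 bases before the start is in capitals too. MUC13 lies at chr3:124934752-124935001 on the minus strand, DUSP1 at chr5:172771196-172771445 on the minus strand and PPM1D at chr17:60599943-60600192 on the plus strand (GRCh38.p14). The response element starts 68, 125 and 61 bases before the start in turn.
MUC13: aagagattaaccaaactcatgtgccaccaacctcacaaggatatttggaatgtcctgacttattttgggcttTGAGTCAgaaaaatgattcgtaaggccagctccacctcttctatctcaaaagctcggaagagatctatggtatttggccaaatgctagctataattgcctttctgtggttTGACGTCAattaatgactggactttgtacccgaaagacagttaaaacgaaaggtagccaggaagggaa
DUSP1: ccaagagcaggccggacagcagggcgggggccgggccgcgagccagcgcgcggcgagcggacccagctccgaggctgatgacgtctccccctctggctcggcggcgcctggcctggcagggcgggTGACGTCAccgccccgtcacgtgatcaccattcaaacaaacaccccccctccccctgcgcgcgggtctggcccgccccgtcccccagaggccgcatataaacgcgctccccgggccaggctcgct
PPM1D: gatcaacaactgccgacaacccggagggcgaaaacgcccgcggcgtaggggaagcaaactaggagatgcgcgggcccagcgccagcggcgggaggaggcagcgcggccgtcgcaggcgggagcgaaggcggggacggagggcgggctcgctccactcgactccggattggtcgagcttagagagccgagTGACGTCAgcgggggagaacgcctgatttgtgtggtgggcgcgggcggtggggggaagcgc
DUSP1 read 7.94 and 7.73 with DMSO and 9.49 and 9.36 with AICAR. PPM1D read 8.55 in both DMSO arrays and 10.37 and 10.26 with AICAR. Neither gene's groups overlapped, with rises of 3.01-fold and 3.38-fold.

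Of 22 tested genes of the MHC class I pathway 11 rose, 0 fell and the rest were not called. This set was put together after its values had been seen, from genes of class I light chains, peptide loading and class I-like ligands, so the count is a description; its median was 0.36 and its lowest value -0.08. MR1, a class I-like molecule that presents vitamin metabolites, read 6.41 and 6.17 with DMSO and 10.01 and 9.85 with AICAR, a 12.5-fold difference. HCP5, a non-coding RNA of the class I region, read 5.14 and 5.33, then 8.82 and 8.86. MICB, a stress ligand of the natural killer receptor NKG2D, read 8.08 and 8.01, then 10.48 and 10.18. In these 3 genes the treatments were well apart. Its relative MICA rose by 1.39, the peptide transporter subunits TAP1 and TAP2 by 1.73 and 0.64, and B2M, the class I light chain, by 1.01. Sequence shared between the MIC genes, or between class I genes, could place signal of one on another.

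The genes that fell most were of many kinds, among them PTPRK, the small nucleolar RNA SNORD12C, the transcription factors NFIA (-2.50) and HNF4G (-2.48), the spindle protein SKA2 (-2.40) and the carrier SLC7A11 (-2.36). PTPRK, a receptor tyrosine phosphatase, read 9.75 and 9.64 with DMSO and 6.86 and 6.19 with AICAR, a 9.02-fold fall (-3.17 ± 0.19, adjusted p = 2.19e-09). PRKCA, protein kinase C alpha, read 8.60 and 8.50, then 5.41 and 5.45. PLCB1, a phospholipase that feeds protein kinase C, read 8.82 and 8.67, then 5.99 and 5.47. Both AICAR arrays of each gene lay more than 2 units below the DMSO arrays. Of 9 tested receptor-type phosphatases 6 fell and 1 rose, PTPRG by 2.12 and PTPRM by 1.74. Of 10 protein kinase C and D genes 6 fell and 1 rose. In cAMP signalling 0 of 20 rose and 11 fell, led by the phosphodiesterases PDE3B (-2.16) and PDE4D (-1.44). PTPRK, PRKCA, PLCB1, PTPRG, PTPRM, PDE3B and NFIA lie in loci of 552, 508, 753, 736, 840, 256 and 386 kb. Of all tested loci over 200 kb, 63.8% fell. In the Wnt pathway 1 of 31 rose and 17 fell, among them the membrane ligases ZNRF3 and RNF43 (-1.81 each) and the receptor LGR5 (-1.61).

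The fall went with the length of the gene. The 25 lowest changes, from -3.17 to -2.35, had a median locus length of 182 kb in RefSeq, and 15 of them were over 100 kb. The 25 highest had a median of 13.8 kb, and 0 were over 100 kb. Over the 13800 tested genes with a length, the median change went from 0.19 in 3778 loci under 10 kb through 0.10 at 10 to 30 kb, -0.03 at 30 to 60 kb, -0.17 at 60 to 100 kb and -0.46 at 100 to 200 kb to -0.71 in 752 loci over 200 kb. In the shortest class 20.4% rose and 9.77% fell, and in the longest 3.32% rose and 63.8% fell. Of the 50 longest loci 35 fell and 0 rose. Gephyrin (GPHN), whose locus spans 1230 kb, read 8.14 and 8.08, then 6.04 and 5.39. The phosphodiesterase gene PDE4D, at 1550 kb, read 7.14 and 6.91, then 5.70 and 5.47. The guidance receptor gene ROBO1, at 1170 kb, read 9.32 in both DMSO arrays, then 7.52 and 7.17. Their groups did not overlap. Not every long gene fell: DMD, the longest at 2220 kb, was not called at -0.23, nor was MACROD2 at 0.06.

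The order by length was present at every level of expression. With the genes divided by DMSO level into 4 equal classes, in the brightest the median went from -0.10 under 10 kb to -1.07 over 200 kb, and 85.2% of the latter fell. In the dimmest class it went only from 0.27 to 0.14. The DMSO level is 1 term of the change, so differences between the level classes are partly fixed by this division. Across the 14 alternative settings the median of the longest class lay between -0.96 and -0.62. In sh-p53 cells, whose arrays are others, the AICAR medians went from 0.21 in the shortest to -0.68 in the longest class. With Nutlin in sh-con cells, measured against the same DMSO arrays, they were 0.15 and -0.04.

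**Figure D2:**
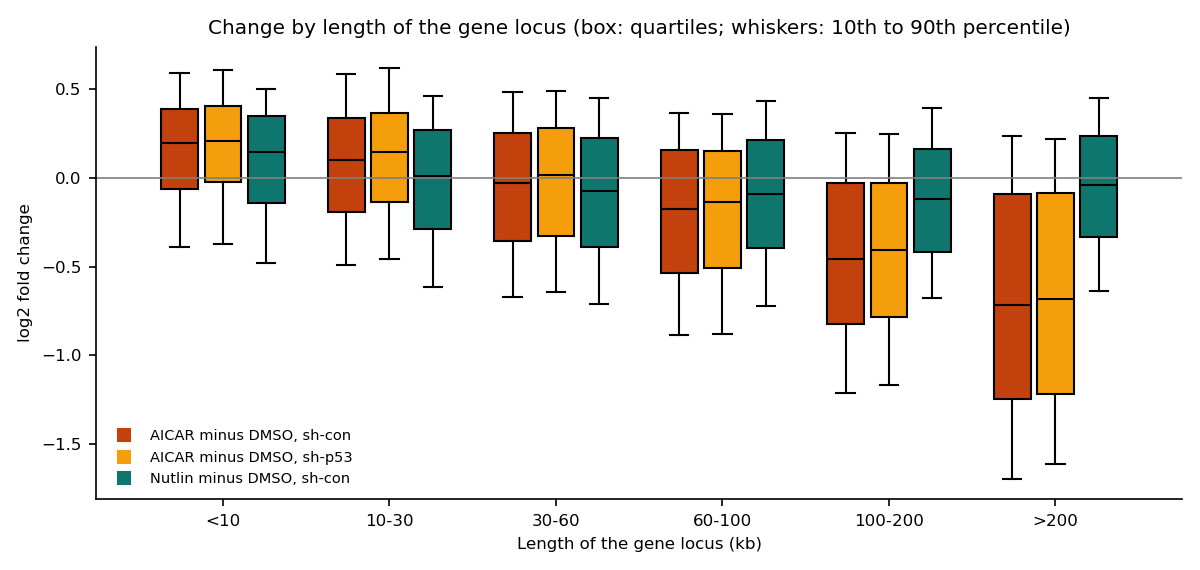
Log2 fold change by length of the gene locus in kb, for AICAR against DMSO in sh-con (dark orange) and in sh-p53 (yellow) and for Nutlin against DMSO in sh-con (green); boxes are quartiles, whiskers the 10th and 90th percentiles. Both AICAR medians fall from about 0.2 under 10 kb to -0.71 and -0.68 over 200 kb, while the Nutlin median is -0.04 there.

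Most tested genes of amino acid synthesis, amino acid transport and tRNA charging fell. In the amino acid response, whose transcription factor ATF4 raises enzymes and transporters when amino acids run short, 10 of 11 tested synthesis enzymes fell and 0 rose, with a median of -0.46. Most of these falls were small, and 3 of the 11 were called without the first DMSO array and 4 without the second AICAR array. ATF4 read 10.60 and 10.43 with DMSO and 8.77 and 8.34 with AICAR by its brightest probe set, a fall of 1.96, while its other probe set fell by 0.71. SLC7A11, the cystine carrier, read 9.52 and 9.45, then 7.45 and 6.80, and fell 5.13-fold. MTHFD2, a mitochondrial folate enzyme, fell by 1.14 and ASNS, asparagine synthetase, by 0.44, the latter not called without either DMSO array or the second AICAR array. Other genes raised by the same stress were divided: DDIT3 (CHOP) rose by 0.56, short of the threshold with arrays centred, and ATF3 by 1.47, while the pseudokinase TRIB3 fell by 1.06. Of 18 amino acid transporters 10 fell and 2 rose, and of 20 cytosolic tRNA synthetases 13 fell and 0 rose, YARS1 by 1.47.

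Genes of ribosome production gave a mixed picture beside the 23.2% that fell over all genes. Of 58 tested ribosome biogenesis genes 37 fell (63.8%) and 0 rose, and the median was -0.58. UTP20, which helps process pre-ribosomal RNA, read 8.98 in both DMSO arrays and 7.53 and 6.92 with AICAR. Its groups lay apart, and NOB1 (-1.29), RRS1 (-1.25), RRP15 (-1.14) and the pseudouridine synthase DKC1 (-1.03) fell as well. Of 59 cytosolic ribosomal protein genes 14 fell (23.7%, near the share over all genes) and 0 rose, and their median was -0.27. That count was 7 without the first DMSO array, 9 without the second AICAR array and 29 with arrays centred on the median. Outside the lists, 38 of 74 mitochondrial ribosomal protein genes fell and 4 rose, a family picked after its values had been seen.

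Small nucleolar RNAs guide chemical marks on ribosomal RNA and are cut from introns of host genes. Of 132 tested, 55 fell (41.7%) and 15 rose (11.4%), beside 23.2% and 14.6% over all genes. Of 76 in the C/D box class 40 fell and 3 rose (median -0.54), and of 56 in the H/ACA class 15 fell and 12 rose (median -0.02), with SNORA3B (-2.08) and SNORA74A (-1.90) among the falls. The difference between the classes was not tested. SNORD12C read 8.35 and 8.12 with DMSO and 5.24 and 4.89 with AICAR, an 8.98-fold fall, and ZFAS1, at whose locus it lies, fell by 1.00. SNORD49A read 7.90 and 7.49, then 5.10 and 4.40. SNHG29 at its locus fell by 0.85 by its brightest probe set and by 2.14 by its other one. In both cases all AICAR values lay below all DMSO values, and the small RNA fell further than the gene around it. That order was not general. SNORD45A (-0.50), SNORA21 (-0.89) and SNORA70F (-1.34) fell less than RABGGTB (-1.20), RPL23 (-1.19) and COBLL1 (-1.75) around them. Of 27 fallen small nucleolar RNAs inside a tested gene, 16 lay in a gene that fell, 11 in one that was not called and 0 in one that rose. Of all 72 tested ones inside a tested gene, 37 lay in a gene that fell. Strand was not used in placing them, small RNAs of near-identical sequence can share signal, and a probe set may also read the host's intron.

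Purine and folate genes fell together with them. AICAR enters this pathway as ZMP, the substrate of ATIC. Of 12 tested genes of de novo purine synthesis 7 fell and 0 rose, with a median of -0.48: PFAS by 1.33, ADSL by 1.19, GMPS by 1.14 and ATIC itself by 0.87. Of 15 folate and one-carbon genes 11 fell and 2 rose, led by MAT1A, which makes S-adenosylmethionine in liver. It read 8.29 and 8.11 with DMSO and 6.92 and 6.31 with AICAR, a fall of 1.58. CAD, which opens pyrimidine synthesis, fell by 1.12. PNP, which breaks down purine nucleosides, rose by 0.94.

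**Figure D3:**
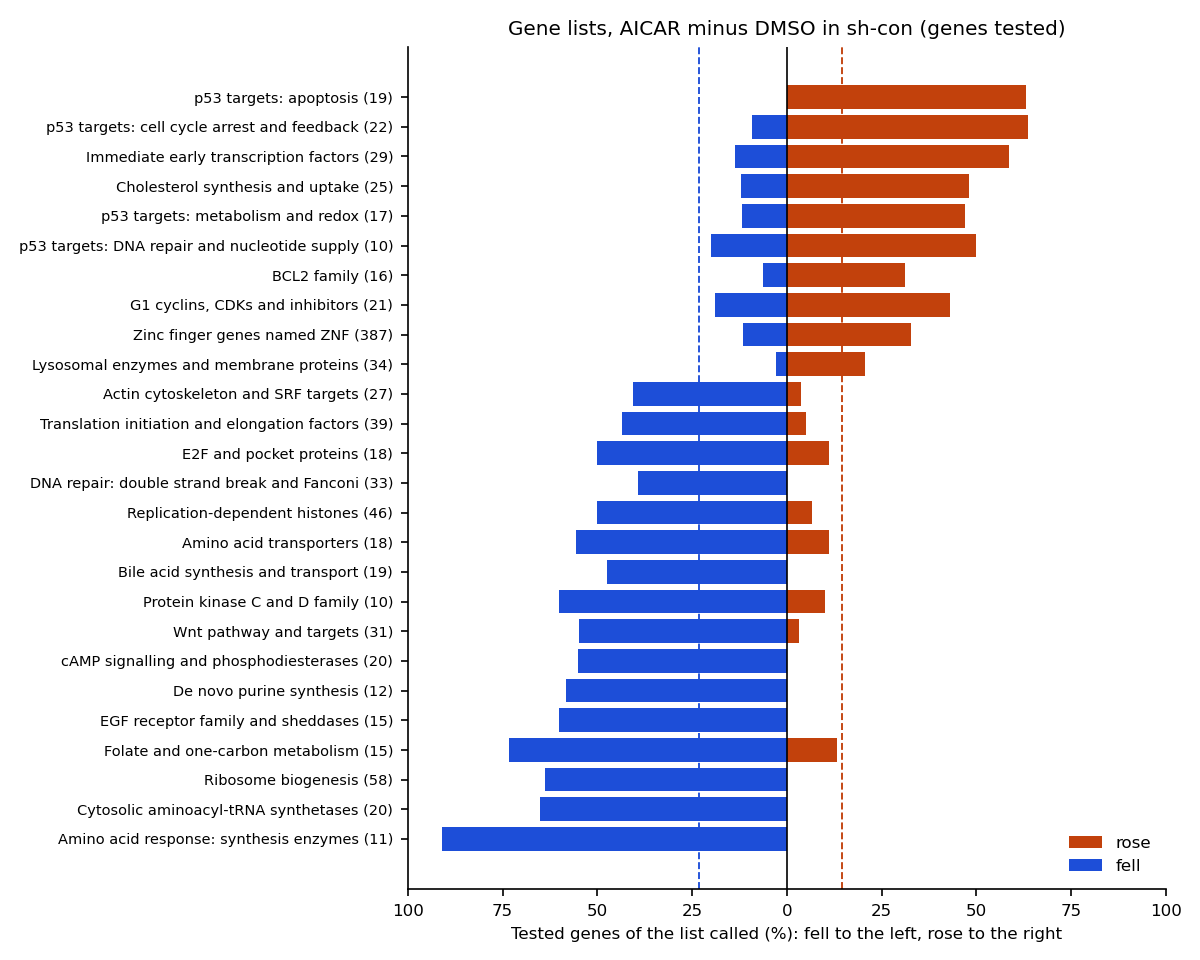
Percent of tested genes called lower (blue, to the left) and higher (orange, to the right) in 26 gene lists with at least 10 tested genes, the 16 and 10 with the largest excess of falls and of rises; dashed lines mark the 23.2% and 14.6% over all genes. Bars reach 90.9% fallen for amino acid synthesis enzymes and 63.6% risen for p53 arrest targets.

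Lipid and liver genes divided. Of 25 genes of cholesterol synthesis and uptake 12 rose and 3 fell, with a median of 0.29. IDI1, an isomerase of the isoprenoid steps, read 9.89 and 9.82 with DMSO and 11.37 and 11.38 with AICAR, a 2.87-fold rise with no overlap. MYLIP, the ligase that removes the LDL receptor, rose by 2.16, and SC5D, STARD4 and MSMO1 rose by 1.17, 1.15 and 1.14. Of 22 genes of fatty acid and triglyceride synthesis 3 rose (13.6%) and 7 fell (31.8%), beside 14.6% and 23.2% over all genes. ACSS2 rose by 1.51 and ACACA, the AMPK-regulated carboxylase, fell by 0.86. Fewer fell without the first DMSO or the second AICAR array. Of 34 lysosomal genes 7 rose (20.6%) and 1 fell (2.94%), NEU1 the furthest at 1.45. The count of rises was 17 after a further quantile normalisation and 4 with arrays centred on the median. It was also lower without the second DMSO array. Of 52 secreted plasma protein genes 6 rose (11.5%) and 4 fell (7.69%), both below the shares over all genes, the rises numbering 2 without the first DMSO array and 3 without the second AICAR array, the largest change being in hepcidin (HAMP), which read 7.99 and 7.86, then 6.07 and 5.97. Of 25 hepatocyte transcription factors 1 rose and 9 fell, HNF4G by 2.48. IGFBP1, a secreted binder of insulin-like growth factors, fell by 1.86, and the receptors IGF1R and INSR fell by 1.74 and 1.62. The loci of ACACA and IGF1R span 322 and 316 kb, and 63.8% of tested loci over 200 kb fell. The antioxidant regulator NFE2L2 fell by 1.25.

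Zinc finger genes were raised in large number. Of 387 tested genes named ZNF, 127 rose (32.8%) and 45 fell (11.6%), with a median of 0.18; centring the arrays left 80 risen and 61 fallen and a median of 0.04. Without the first DMSO array 19 fell, and without the second AICAR array 25. On chromosome 19, where these genes lie in clusters, 79 of 181 rose and 13 fell, against 115 risen and 138 fallen among 921 other genes of that chromosome. ZNF550 read 6.79 and 6.66 with DMSO and 8.91 and 8.63 with AICAR, and ZNF563 read 5.55 and 5.25, then 7.67 and 7.39. The groups of both lay apart, although related zinc finger genes can share probes. Of 46 replication-dependent histone genes 23 fell and 3 rose. H3C2 read 10.12 and 9.97, then 8.25 and 8.12, and histone genes also resemble each other in sequence. Of 9 bitter taste receptor genes, a family picked after its values had been seen, 4 fell and 1 rose, TAS2R20 by 2.27 and TAS2R14 by 2.12 to levels under the filter level.

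Cell cycle genes set AICAR apart from Nutlin. Comparing the treated sh-con arrays directly, 2338 genes were higher with AICAR than with Nutlin and 2467 lower, 16.9% and 17.9% of those tested. Of 60 mitosis and kinetochore genes 58 were higher with AICAR than with Nutlin and 0 lower, and of 50 replication and S phase genes 45 were higher and 0 lower. Against DMSO, AICAR raised 12 (20%) and lowered 10 (16.7%) of the mitosis genes (median 0.05, or -0.09 with arrays centred). It raised 6 (12%) and lowered 24 (48%) of the S phase genes (median -0.35). Over all genes the shares were 14.6% and 23.2%. The fallen S phase genes numbered 11 without the first DMSO array and 12 without the second AICAR array, and the risen ones 2 without either DMSO array or the first AICAR array. The risen mitosis genes numbered 7 without the second DMSO array, and the fallen ones 6 without the first DMSO array and 5 without the second AICAR array. CDK1, the mitotic kinase, read 8.16 and 7.98 with DMSO, 9.02 and 9.0 with AICAR, and 4.45 and 3.85 with Nutlin. SPC25, a kinetochore protein, read 8.10 and 7.90, 8.60 and 8.38, and 3.74 and 3.31 in the same order. The Nutlin arrays were the low ones in both genes, under the filter level, so the sizes against Nutlin, 4.86 and 4.96, are uncertain. CCNE2, a cyclin of S phase entry, rose by 2.04 with AICAR. CDK6, in a locus of 232 kb, fell by 2.16, and the helicase subunit MCM3 fell by 1.28. CDKN1A was 0.58 lower and MDM2 0.90 lower with AICAR than with Nutlin, whose values were 9.92 and 9.76 for CDKN1A. PMAIP1 was 2.91 higher with AICAR. PLCB1 (-3.34) and PTPRK (-2.72) were among the genes furthest below Nutlin.

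**Figure D4:**
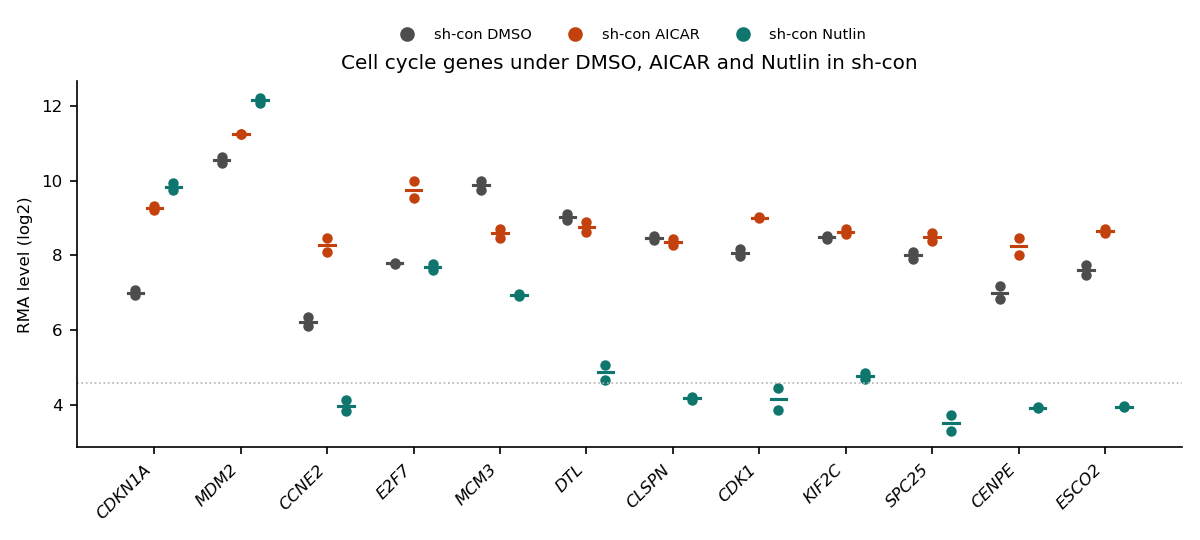
Log2 RMA level of 12 cell cycle genes in each sh-con array (points, group means as bars) under DMSO (grey), AICAR (orange) and Nutlin (green); the dotted line is the filter level of 4.58. CDK1 and SPC25 stay at 7.90 or above with DMSO and AICAR and drop to 4.45 or below with Nutlin.

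Most of the AICAR response was not different, by the test, between sh-con and sh-p53 cells. The response was lower in sh-p53 than in sh-con for 98 genes and higher for 42, which is 0.709% and 0.304% of those tested. Of the 2023 genes that rose in sh-con, 76 had a lower and 2 a higher response in sh-p53. Of the 3198 that fell, 26 had a higher and 4 a lower one. The sh-con arrays that chose these genes also enter the difference. That leans risen genes to lower and fallen genes to higher responses in sh-p53. The counts of 98 and 42 rest on few arrays: leaving out 1 of the 8 arrays concerned gave 35 to 170 and 3 to 73 genes. The lowest of these came without the second sh-p53 DMSO array (35 lower) and without the first sh-con DMSO array (3 higher). Without the first sh-con AICAR array the balance turned, with 73 higher and 64 lower. Centring the arrays gave 74 and 15, so that 16.9% of calls were higher in place of 30%. CABYR read 4.69 and 4.42 with DMSO and 5.07 and 5.05 with AICAR in sh-p53, so that its rise of 4.07 became 0.50 (difference -3.57 ± 0.20, adjusted p = 1.78e-08). TP53I3 read 7.56 and 7.78, then 8.12 and 8.36, in sh-p53 (difference -2.49 ± 0.23). Within sh-p53, AICAR against DMSO called 16.2% of genes higher and 21.6% lower in the same fit. FBXW7, a ubiquitin ligase subunit, rose by 1.31 in sh-con and fell by 0.78 in sh-p53, where it read 6.02 and 6.14, then 5.32 and 5.30.

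Among p53 targets, TP53INP1 (-1.18), FAS (-1.08) and PPM1D (-0.85) had a lower response in sh-p53, the last 2 called in 12 and 9 of 17 alternatives, while the differences for CDKN1A (-0.51 ± 0.19, adjusted p = 0.24), MDM2 (-0.52 ± 0.19, adjusted p = 0.227) and PMAIP1 (-1.06 ± 0.25, adjusted p = 0.0528) were not called. Called lower were 4 of 22 arrest targets, 4 of 19 apoptosis targets, 4 of 17 targets of metabolism and redox and 0 of 10 of DNA repair. Over all tested genes 0.709% were called lower. In each list 0 were called higher. The median AICAR changes of these lists, in the same order, were 0.84, 1.02, 0.24 and 0.36 in sh-con. In sh-p53 they were 0.36, 0.20, 0.02 and 0.00, a difference that was not tested for the lists. The MHC-like MR1 rose by 1.57 in sh-p53 against 3.64 in sh-con. In the other direction, PLAU, a plasminogen activator, rose by 0.85 in sh-con and by 2.39 in sh-p53, where it read 5.70 and 6.04, then 8.22 and 8.30. HCFC1, a chromatin cofactor, fell by 1.29 in sh-con and was not called in sh-p53 (0.36). HBEGF (difference -0.40 ± 0.20, adjusted p = 0.436) and ARRDC4 (0.05 ± 0.27, adjusted p = 0.975) rose in both lines, HBEGF to 8.98 and 9.08 and ARRDC4 to 9.67 and 10.01 in sh-p53. A difference that misses the threshold at 2 arrays a group does not show that the lines responded alike.

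**Figure D5:**
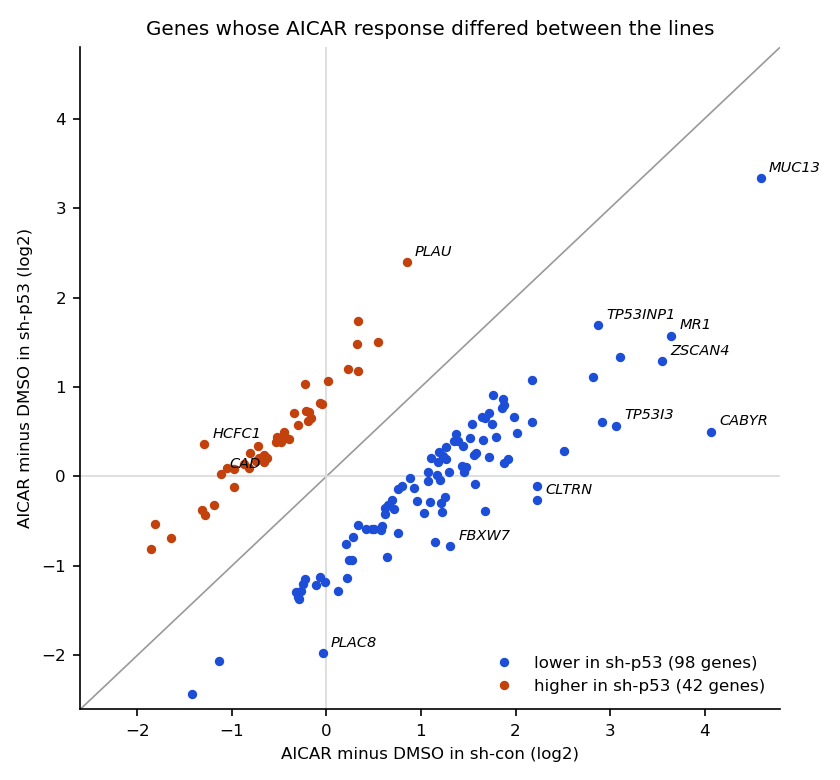
AICAR minus DMSO in sh-con (horizontal) against sh-p53 (vertical), both log2, for the 140 genes whose response differed between the lines; the diagonal marks equal responses. The 98 genes in blue lie below it, with CABYR at 4.07 and 0.50, and the 42 in orange above it, with PLAU at 0.85 and 2.39; they were selected for lying off the diagonal.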

How the data were processed

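Transcript levels of HepG2 cells were measured on 12 Affymetrix gene arrays, 2 for each of 6 groups. The deposited values are log2 expression made by RMA in Partek, per the submitters' processing notes; the versions of both are not given in the sources used here. By its quantile step RMA gives arrays like distributions, so a shift of all genes together is partly removed. Each gene was read from its brightest probe set with 1 symbol. The 4604 genes whose level lay below the 25th percentile, 4.58, were left out of 18417, and 0 value columns were unmatched to a sample.

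All 12 arrays entered 1 limma fit (limma 3.58.1, R 4.3.3) with a mean per group and no block. The contrasts were tested with Benjamini-Hochberg adjustment over 13813 genes at 0.05: AICAR minus DMSO in sh-con, its difference between the hairpin lines, and AICAR minus Nutlin in sh-con. Calls within sh-p53 are from AICAR minus DMSO there, a contrast of the same fit added after the data were seen. The scripts were tested on simulated data. Genes named are the 25 highest and 25 lowest changes with groups apart, up to 8 called genes in each of 77 lists, the 12 largest each way in the other contrasts, fixed genes of the AICAR, AMPK, EGF and p53 pathways, and all markers. Members and lists were chosen with earlier results of these data known. Promoters are the 250 bases before the most upstream RefSeq start. Alternatives were other filters, probe set means, fewer arrays in the fit, renewed quantile normalisation, median centring, limma-trend, array weights, the replicate block and leaving out each array.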

Additional observations from a re-analysis of the deposited data

Results flagged for a closer look

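The AICAR response of 16 genes named above differed between the hairpin lines by the limma interaction test (sh-p53 minus sh-con, log2, adjusted over all genes), and these are given here as values. Lower responses in sh-p53 were found for CABYR (-3.57), TP53I3 (-2.49), the receptor HCAR3 (-2.23), FBXW7 (-2.08), MR1 (-2.07), the ceramidase ACER2 (-1.71), IGFBP1 (-1.35), MUC13 (-1.25), TP53INP1 (-1.18), DDIT4 (-1.17), FAS (-1.08), PCK1 (-1.01) and PPM1D (-0.85). Higher responses were found for CAD (1.14), PLAU (1.55) and HCFC1 (1.66). HCAR3 rose by 2.51 in sh-con and was not called in sh-p53 (0.28). CAD fell by 1.12 in sh-con and was not called in sh-p53 (0.03). PCK1 and DDIT4 were not called in sh-con and fell in sh-p53, PCK1 by 0.59 and DDIT4 by 1.18. IGFBP1 fell in both lines, by 1.86 and 3.20. The calls for PCK1, IGFBP1, PPM1D and DDIT4 held in 6 of 16, 9 of 17, 9 of 17 and 10 of 17 alternatives.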

How the results depend on the processing

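No called value of a named gene changed sign under the alternatives run. Balances between counts did turn: without the first sh-con AICAR array 73 genes had a higher and 64 a lower response in sh-p53, and more genes were higher than lower with AICAR against Nutlin without the first Nutlin array (2055 and 1702) or the second AICAR array (2346 and 1994). With arrays centred, 7 mitosis genes rose and 12 fell, and the uncalled ALB went from 0.09 to -0.05. Leaving out 1 array gave 1164 to 2562 risen and 2009 to 3409 fallen genes for AICAR in sh-con, 3 to 73 genes with a higher and 35 to 170 with a lower response in sh-p53, and 1688 to 2346 higher and 1702 to 2458 lower than with Nutlin. Centring the arrays on the median gave 1103 risen genes in sh-con and 15 with a higher response in sh-p53. The higher and lower responses in sh-p53 numbered 132 and 215 after renewed quantile normalisation and 102 and 175 with limma-trend, and the higher ones 94 with the filter at the 50th percentile. The cause was not tested. With the replicate number as a block (replicate block) the counts were 2094 and 3209 in sh-con, 47 and 113 between the lines, and 2318 and 2473 against Nutlin. Same-numbered arrays of sh-con DMSO and AICAR deviated together (r = 0.493), as did those of the sh-con groups with Nutlin (0.252 and 0.435). So did sh-p53 Nutlin with sh-con AICAR (0.567), sh-con DMSO (0.458) and sh-con Nutlin (0.355). Over all pairs of groups r ran from -0.558 to 0.567. The labels do not say what the numbers share, so they were not used as pairs, and a set shared between arrays was not tested. With 2 arrays a group, their number limits the precision, and genes under the filter level have uncertain sizes.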

Other observations

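Some groups of genes outside the comparisons above were looked at after their values had been seen, and are given as values beside the 14.6% that rose and 23.2% that fell over all genes. Of 17 histone demethylase genes named KDM 11 fell and 1 rose, at a median of -0.49. Of 61 microRNA precursors named MIR 17 rose (27.9%) and 1 fell (1.64%), and of 89 long intergenic RNAs named LINC 18 rose (20.2%) and 4 fell (4.49%), with medians of 0.28 and 0.23. Of 40 olfactory receptor genes 7 rose (17.5%) and 0 fell, at a median of 0.28. Among the dimmest of 4 level classes, tested genes with loci under 10 kb had a median of 0.27, with 20.9% risen and 1.18% fallen. The classes were formed by the DMSO level, which is 1 term of the change. The dimmest reached down to 3.73, under the filter level of 4.58, so some of its genes passed only through other arrays. Its excess of rises is therefore partly fixed by the choice of genes. Of 33 genes of double strand break and Fanconi repair, from a list, 13 fell and 0 rose, with a median of -0.32.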
